A study of Mus musculus with 6 samples.

Results

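Interferon-stimulated genes are the genes that cells transcribe after an interferon has bound its receptor. The set described here was listed by name, with earlier results of these data known, and holds 37 of them, including Plscr1. Of these 37 genes, 32 had a probe set of their own on mouse liver arrays that gave values for 19550 genes in all. Each gene was represented by its probe set of highest mean over the arrays. Isg15, Gbp2, Gbp6 and Igtp lay only on probe sets that the annotation shares among several genes, and Ifi44 was matched to no named probe set, so these 5 genes were not analysed here. A filter on dim genes, which kept genes whose mean reached the 25th percentile of all genes (a value of 0.185), left out Oas3 and Mx1. The other 30 members were tested among 14662 genes.

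The study compared liver RNA of 3 groups of male mice on the C57BL/6NCrSlc background, with 2 arrays in each group. AA-deficient knockouts lacked SMP30/GNL (senescence marker protein 30, the gluconolactonase encoded by Rgn, which mice need to make ascorbic acid, AA or vitamin C) and were fed a diet without AA. AA-supplemented knockouts had the same genotype and diet, but their drinking water held enough AA to keep tissue levels normal, stabilised with EDTA. Wild-type mice ate the diet deprived of the vitamin, drank water without it and could make their own. The labels do not say whether the water of the other groups held EDTA, how old the mice were or which part of the gene was deleted. The question of the series is what losing SMP30/GNL and losing AA each change in liver RNA.

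Interferons are secreted proteins released when a cell senses viral or bacterial nucleic acid. Type I interferons and interferon gamma signal through receptors that carry Jak kinases, which phosphorylate Stat proteins. A complex that holds Stat2 and Irf9 binds the interferon-stimulated response element (ISRE) of target genes, and interferon gamma acts through the gamma-activated site (GAS). The induced proteins degrade or sequester viral RNA, block viral budding, raise the supply of sensors and switch the signal off again. In the liver, hepatocytes, Kupffer cells (the resident macrophages) and endothelial cells all respond to interferon.

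Values are the authors' deposited ones, on a log scale taken here as log10, and a difference is in these log units unless a fold is named. The values spanned -0.575 to 2.51, which is 1213-fold if log10 and 8.48-fold if log2, so each fold printed holds on the log10 reading. The array medians lay between 0.350 and 0.392, and arrays of one group correlated at 0.965 to 0.9754 across probe sets, against 0.945 to 0.974 for arrays of different groups. Rgn had values of 0.23 and 0.30 in AA-deficient knockouts, 0.34 and 0.14 in AA-supplemented knockouts, and 2.07 and 1.996 in wild type. The genotype labels of all 6 arrays thus fit the measured Rgn level. Rgn was low in both knockout groups, so it cannot check which knockout arrays were AA-deficient. The hepatocyte markers lay between 1.75 and 2.41, while markers of T, B, natural killer and plasmacytoid dendritic cells lay between -0.272 and 0.471 on every array, a range in which background cannot be separated from expression because no detection call was used. The labels name separate samples within a group without saying whether each is its own animal. A p-value here therefore reflects the spread among these 6 samples, which may be technical, and precision is limited by the number of arrays.

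Plscr1 and Isg20 fell in AA-deficient knockouts, and the other 28 tested members gave no call in any comparison. Plscr1, a phospholipid scramblase that moves lipids between membrane leaflets and takes part in antiviral defence, was lower than in both other groups. Isg20, an exonuclease that degrades single-stranded RNA, was called lower against wild type alone. AA-supplemented knockouts differed from wild type in 0 of the 30 members by limma at an adjusted p under 0.05. The differences were tested with limma over all 14662 genes, with Benjamini-Hochberg adjustment over those genes.

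Plscr1 (probe set 10356082) had values of 0.765 and 0.873 in AA-deficient knockouts, 1.26 and 1.41 in AA-supplemented knockouts, and 1.35 and 1.46 in wild type. Both AA-deficient arrays lay below all 4 arrays of the other groups, while the AA-supplemented and wild-type arrays overlapped. The AA-deficient mean of 0.819 ± 0.076 (SD, n = 2) stood 0.517 below the AA-supplemented mean of 1.34 ± 0.11 (SD, n = 2), a 3.29-fold lower level. The difference of -0.517 had a 95% interval of -0.671 to -0.363 and a limma adjusted p of 0.0409. Against the wild-type mean of 1.41 ± 0.074 (SD, n = 2) the difference was -0.589, with an interval of -0.743 to -0.434, a 3.88-fold lower level and a limma adjusted p of 0.00743. These 2 comparisons share the AA-deficient arrays. AA-supplemented knockouts differed from wild type by -0.0712, with an interval of -0.225 to 0.0829 (limma adjusted p = 0.762). In whole liver RNA, fewer cells that express a gene and less of its RNA per cell cannot be told apart.

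The call of Plscr1 between the knockout groups depended on single arrays. It held without AA-supplemented replicate 1 (limma adjusted p = 0.0294) and was lost when any of the other 5 arrays was left out, at adjusted p between 0.0554 and 0.138, with differences from -0.595 to -0.440 over all 6 fits. The call against wild type was lost only when wild-type replicate 1 or wild-type replicate 2 was left out, at adjusted p of 0.0758 and 0.0774.

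A second probe set of Plscr1 (10587792) shares 7 listed transcripts with the first and therefore repeats the same RNA rather than adding a sample. It had values of 0.708 and 0.811 in AA-deficient knockouts, 1.23 and 1.41 in AA-supplemented knockouts, and 1.33 and 1.43 in wild type. Its difference was -0.558 against AA-supplemented knockouts and -0.619 against wild type, so the order of the groups was the same on both probe sets. Plscr2, the neighbouring paralog, had values of 1.01 and 0.915 in AA-deficient knockouts, 1.19 and 0.962 in AA-supplemented knockouts, and 1.198 and 1.17 in wild type. AA-deficient and wild-type arrays of Plscr2 did not overlap, but the difference of -0.224 did not pass (limma adjusted p = 0.133).

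Isg20 had values of 0.519 and 0.442 in AA-deficient knockouts, 0.778 and 0.615 in AA-supplemented knockouts, and 0.751 and 0.748 in wild type. Both AA-deficient arrays were the lowest of the 6, and the wild-type arrays lay between the 2 AA-supplemented ones. Against wild type the difference was -0.269, with a 95% interval of -0.407 to -0.131, a 1.86-fold lower level and a limma adjusted p of 0.0476. Against AA-supplemented knockouts it was -0.216, with an interval of -0.354 to -0.0780, and did not pass (limma adjusted p = 0.259). The call against wild type was lost without either AA-deficient array or either wild-type array (adjusted p 0.103 to 0.2502) and held without either AA-supplemented array (0.0208 and 0.0220). It was also lost with the replicate number as a block (0.0713).

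**Figure D1:**
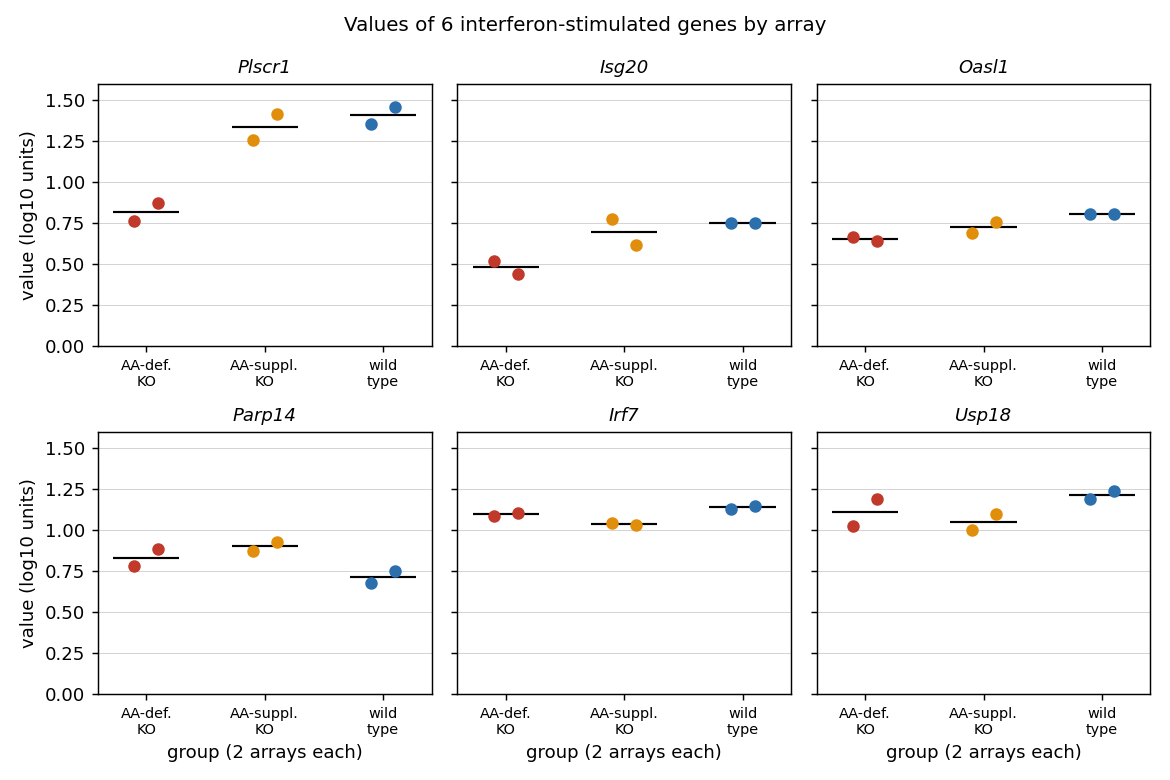
Deposited log values (vertical axis, taken as log10) of Plscr1, Isg20, Oasl1, Parp14, Irf7 and Usp18, 1 point per array, for AA-deficient knockouts, AA-supplemented knockouts and wild type from left to right, with a line at each group mean. Both AA-deficient points of Plscr1, at 0.765 and 0.873, lie below the other 4, and Isg20 shows the same order at a smaller distance.

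The promoters of both genes that fell and of comparison members are shown because they carry the motifs that interferon-activated factors bind. RefSeq windows (GRCm38.p6) were available for 23 of the 32 measured members, and the 250 bases before each listed start were searched on both strands. The ISRE-like motif was searched as GAAA and GAAA with any 2 bases between them, which reads TTTC and TTTC on the other strand, and the GAS-like motif as TTCNNNGAA, which reads the same on both strands. Both motifs overlapped in 18 windows. Irf1 is shown as a textbook target of interferon gamma, and Ifit1 and Rsad2 as members with ISRE-like matches. Each window is written 5′ to 3′ on the strand of the gene, with the matches in capitals.
Plscr1 (chr9:92249944-92250193, plus strand, GAS-like match starting 90 bases before the start): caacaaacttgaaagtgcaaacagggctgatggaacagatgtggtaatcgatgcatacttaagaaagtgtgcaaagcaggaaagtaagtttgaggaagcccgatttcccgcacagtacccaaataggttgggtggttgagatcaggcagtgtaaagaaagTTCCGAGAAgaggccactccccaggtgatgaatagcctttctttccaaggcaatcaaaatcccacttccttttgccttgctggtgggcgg
Isg20 (chr7:78913174-78913423, plus strand, GAS-like match starting 73 bases before the start): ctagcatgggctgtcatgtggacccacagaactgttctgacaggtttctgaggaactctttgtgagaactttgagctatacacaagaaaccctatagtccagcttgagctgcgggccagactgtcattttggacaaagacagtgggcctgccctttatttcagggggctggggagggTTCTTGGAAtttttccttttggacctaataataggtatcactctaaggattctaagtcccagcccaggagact
Irf1 (chr11:53769764-53770013, plus strand, GAS-like match starting 90 bases before the start): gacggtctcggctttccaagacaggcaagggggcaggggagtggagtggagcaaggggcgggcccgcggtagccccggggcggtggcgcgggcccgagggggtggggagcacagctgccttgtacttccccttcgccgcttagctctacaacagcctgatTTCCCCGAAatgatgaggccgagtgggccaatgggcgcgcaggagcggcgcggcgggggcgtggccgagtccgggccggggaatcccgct
Ifit1 (chr19:34640639-34640888, plus strand, ISRE-like matches starting 104 and 85 bases before the start): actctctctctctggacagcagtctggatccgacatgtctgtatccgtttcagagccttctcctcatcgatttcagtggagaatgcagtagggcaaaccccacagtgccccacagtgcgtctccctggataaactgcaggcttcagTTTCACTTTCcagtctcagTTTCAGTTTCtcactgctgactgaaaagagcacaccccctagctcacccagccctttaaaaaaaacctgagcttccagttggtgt
Rsad2 (chr12:26456453-26456702, minus strand, ISRE-like match starting 120 bases before the start): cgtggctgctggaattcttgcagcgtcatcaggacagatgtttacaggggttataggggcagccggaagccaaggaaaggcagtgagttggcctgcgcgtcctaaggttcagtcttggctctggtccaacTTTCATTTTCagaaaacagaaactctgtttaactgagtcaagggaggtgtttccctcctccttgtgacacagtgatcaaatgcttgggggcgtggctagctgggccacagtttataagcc

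A GAS-like match stood in 7 of the 23 members with a window (30.4%), namely Plscr1, Isg20, Irf1, Irf8, Ifit2, Eif2ak2 and Bst2, against 8.13% of 27025 genes and 7.02% of 32851 windows. An ISRE-like match stood in 8 of the 23 (34.8%), namely Stat2, Ifit1, Ifit3, Oas3, Rsad2, Bst2, Gbp3 and Irgm1, against 3.46% of genes and 2.98% of windows. Plscr1 and Isg20 had a GAS-like match and no ISRE-like match in these windows. RefSeq lists 3 starts for Isg20 and 2 for Irf1, and in each of these genes 1 start had the match. The matches are letters in a window and were not measured as bound sites. Irf1, which carries a GAS-like match as Plscr1 does, had values of 0.750 and 0.796 in AA-deficient knockouts, 0.823 and 0.671 in AA-supplemented knockouts, and 0.644 and 0.828 in wild type. Its groups overlapped in each comparison. Of the other members with a GAS-like match, Irf8, Ifit2 and Eif2ak2 also overlapped in each comparison. Bst2, which has both motifs, had both AA-deficient arrays lowest. Its differences were -0.0500 against AA-supplemented knockouts and -0.0570 against wild type, and neither passed. Whether the motifs had a part in any difference was not tested.

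Among the members as a whole, most values lay close together across the 3 groups. Over the 3 groups taken at once, limma's F test called 1 of the 30 members, Plscr1 (adjusted p = 0.0161), and the background was 1.36% of all genes tested. Between AA-deficient and AA-supplemented knockouts 1 member was called, lower, against a background of 0.205% in either direction and 0.164% lower. Between AA-deficient knockouts and wild type 2 members were called, both lower, against a background of 4.63%, of which 1.55% were lower and 3.08% higher. Between AA-supplemented knockouts and wild type 0 members were called, against 0.00682%. The members, Plscr1 included, were chosen with earlier results of these data known. These counts beside the background are thus a description and not a test of the set. At an unadjusted p under 0.05 the counts of members were 2, 5 and 4 of 30, where 9.92%, 20.4% and 10.6% of all genes reached that level. The F test reached it for 5 of 30 members, beside 16.8% of all genes.

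Groups that did not overlap were found for 8 members between the knockout groups (6 lower and 2 higher), beside 37.3% of all genes tested (17.5% lower and 19.8% higher). Between AA-deficient knockouts and wild type they were found for 10 members (6 lower and 4 higher), beside 54.5% (26.9% lower and 27.6% higher). Between AA-supplemented knockouts and wild type they were found for 9 members (4 lower and 5 higher), beside 38.6% (18.8% lower and 19.8% higher). Non-overlap was thus no more frequent among members than among all genes. The median difference of the 30 members was -0.0192 between AA-deficient and AA-supplemented knockouts, where all genes had 3.14e-05. It was -0.0119 between AA-deficient knockouts and wild type (all genes -0.00335) and -0.00733 between AA-supplemented knockouts and wild type (all genes -0.00167). The median size of a member's difference, without its sign, was 0.0382, 0.0425 and 0.0351 in these 3 comparisons, against 0.0410, 0.0565 and 0.0444 over all genes. Without Plscr1 and Isg20, the 28 other members ranged from -0.112 to 0.0650 between the knockout groups, from -0.153 to 0.137 for AA-deficient knockouts against wild type, and from -0.164 to 0.185 for AA-supplemented knockouts against wild type.

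The intervals show what these arrays could resolve. The 95% interval of a member's difference had a half-width of 0.0907 to 0.205, with a median of 0.118. In each of the 3 comparisons, 28 of 30 members had an interval that stayed inside a 2-fold change in either direction (0.301 in log10 units), beside 90.9% to 95.3% of all genes. The intervals that reached 2-fold were those of Isg20 and Plscr1 in both comparisons of AA-deficient knockouts, and those of Usp18 and Parp14 between AA-supplemented knockouts and wild type.

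**Figure D2:**
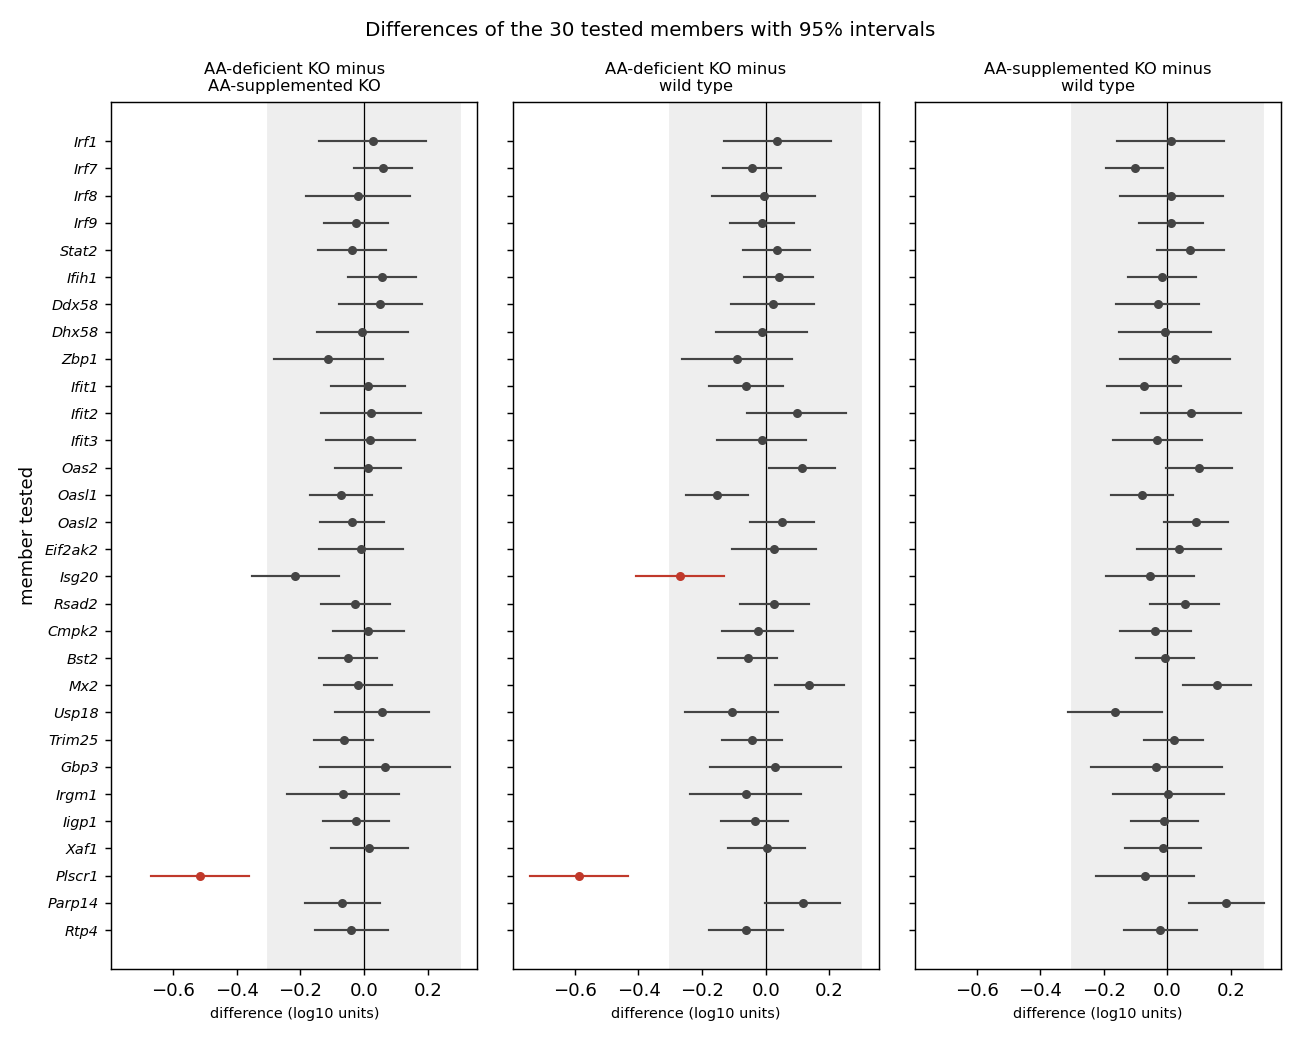
Differences of the 30 tested members with their 95% intervals (horizontal axis, log10 units) for AA-deficient against AA-supplemented knockouts, AA-deficient knockouts against wild type, and AA-supplemented knockouts against wild type. The grey band is a 2-fold change in either direction, red marks an adjusted p under 0.05, and only Plscr1 (-0.517 and -0.589) and Isg20 (-0.269 against wild type) are red.

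The transcription factors of the pathway gave no call in any comparison. Irf7, the factor that amplifies type I interferon production, had values of 1.09 and 1.11 in AA-deficient knockouts, 1.04 and 1.03 in AA-supplemented knockouts, and 1.13 and 1.15 in wild type. Its 3 groups did not overlap, with AA-supplemented knockouts lowest and wild type highest. The differences were small, at 0.0604 between the knockout groups (limma adjusted p = 0.719) and -0.103 between AA-supplemented knockouts and wild type (limma adjusted p = 0.417). Stat2 and Irf9, which act together at the ISRE, and Irf1 and Irf8, factors induced by interferon gamma, made up the rest of the group. Over these 5 factors the differences ran from -0.0381 to 0.0604 between the knockout groups, from -0.0421 to 0.0372 for AA-deficient knockouts against wild type, and from -0.103 to 0.0728 for AA-supplemented knockouts against wild type.

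The 4 nucleic acid sensors also gave no call. They were Ddx58 (RIG-I), Ifih1 (MDA5) and Dhx58 (LGP2), which detect viral RNA in the cytosol, and Zbp1, which binds Z-form nucleic acid and can trigger cell death. Zbp1 had values of 0.381 and 0.583 in AA-deficient knockouts, 0.584 and 0.603 in AA-supplemented knockouts, and 0.493 and 0.648 in wild type. One AA-deficient array was low and the other lay just below the AA-supplemented pair, and the difference between the knockout groups was -0.112 (limma adjusted p = 0.731). The 3 RIG-I-like sensors had values between 0.474 and 1.03 on the 6 arrays, and their differences stayed between -0.0301 and 0.0572 in the 3 comparisons.

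The effectors that act on RNA include the Ifit proteins, which bind viral RNA ends, the Oas family, whose active members make the messenger that activates RNase L, the related Oasl1 and Oasl2, and Eif2ak2 (PKR), the kinase that halts translation on double-stranded RNA. Of the 8 tested, Isg20 was the one called. Oasl1, which in mice restrains translation of Irf7, had values of 0.664 and 0.642 in AA-deficient knockouts, 0.692 and 0.757 in AA-supplemented knockouts, and 0.806 and 0.805 in wild type. The 3 groups did not overlap, with AA-deficient knockouts lowest, but the differences did not pass, at -0.0720 against AA-supplemented knockouts (limma adjusted p = 0.672) and -0.153 against wild type (limma adjusted p = 0.0856). Oas2 had values of 0.296 and 0.265 in AA-deficient knockouts, 0.243 and 0.292 in AA-supplemented knockouts, and 0.133 and 0.201 in wild type. Both wild-type arrays of Oas2 were the lowest, with a difference of 0.113 for AA-deficient knockouts (limma adjusted p = 0.203) and 0.1003 for AA-supplemented knockouts (limma adjusted p = 0.484) against wild type. The wild-type mean of 0.167 lay below the filter value of 0.185, so Oas2 passed the filter through its knockout arrays. Expression at that level cannot be told from background.

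Ifit1, a member that responds strongly to type I interferon, had values of 0.628 and 0.701 in AA-deficient knockouts, 0.642 and 0.662 in AA-supplemented knockouts, and 0.673 and 0.778 in wild type. Its AA-deficient arrays overlapped both other groups. Ifit3 had values of 0.780 and 0.912 in AA-deficient knockouts, 0.852 and 0.802 in AA-supplemented knockouts, and 0.798 and 0.918 in wild type, and its groups overlapped in each comparison. Ifit2, Oasl2 and Eif2ak2 gave no call either. Oas3, left out by the filter, lay between 0.0509 and 0.195 on the 6 arrays.

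The membrane and nucleotide effectors gave no call among 4 tested. Rsad2 (viperin) and Cmpk2 lie side by side in the genome and act on nucleotides, and Bst2 (tetherin) holds budding viruses at the cell surface. The groups of Rsad2 and of Cmpk2 overlapped in each comparison. Bst2 had values of 0.952 and 0.971 in AA-deficient knockouts, 1.03 and 0.994 in AA-supplemented knockouts, and 1.02 on both wild-type arrays, with both AA-deficient arrays lowest at small distances. Mx2, a dynamin-like GTPase, had values of 0.188 and 0.279 in AA-deficient knockouts, 0.245 and 0.261 in AA-supplemented knockouts, and 0.0710 and 0.122 in wild type. Both wild-type arrays were lowest, and the differences from wild type were 0.137 in AA-deficient knockouts (limma adjusted p = 0.147) and 0.156 in AA-supplemented knockouts (limma adjusted p = 0.338). Both wild-type values of Mx2 lay below the filter value of 0.185, so the gene passed the filter through its knockout arrays. Expression at that level cannot be told from background. Mx1, which like Mx2 is defective in most laboratory strains, lay between 0.0840 and 0.243 on the 6 arrays and was left out by the filter.

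Usp18 and Trim25 belong to the ISG15 system, Usp18 as the protease that removes ISG15 and blocks the type I receptor, and Trim25 as a ligase that acts on RIG-I. Neither was called. Usp18 had values of 1.02 and 1.19 in AA-deficient knockouts, 1.002 and 1.10 in AA-supplemented knockouts, and 1.19 and 1.24 in wild type. The AA-supplemented arrays lay below the wild-type pair, with a difference of -0.164 (limma adjusted p = 0.425), and the AA-deficient arrays spanned the gap between them. Among the GTPases that interferon gamma induces against intracellular pathogens, Gbp3, Irgm1 and Iigp1 were tested and gave no call. Iigp1 had values of 1.43 and 1.49 in AA-deficient knockouts, 1.46 and 1.51 in AA-supplemented knockouts, and 1.46 and 1.53 in wild type, and the groups overlapped.

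Parp14, an ADP-ribosyltransferase, had the largest difference of the tested members between AA-supplemented knockouts and wild type. Its values were 0.782 and 0.884 in AA-deficient knockouts, 0.875 and 0.928 in AA-supplemented knockouts, and 0.681 and 0.751 in wild type. All 4 knockout arrays lay above both wild-type arrays, but the differences of 0.117 in AA-deficient knockouts (limma adjusted p = 0.252) and 0.185 in AA-supplemented knockouts (limma adjusted p = 0.290) did not pass. Xaf1, a partner of the apoptosis inhibitor Xiap, and Rtp4, a receptor chaperone, overlapped between groups in each comparison.

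**Figure D3:**
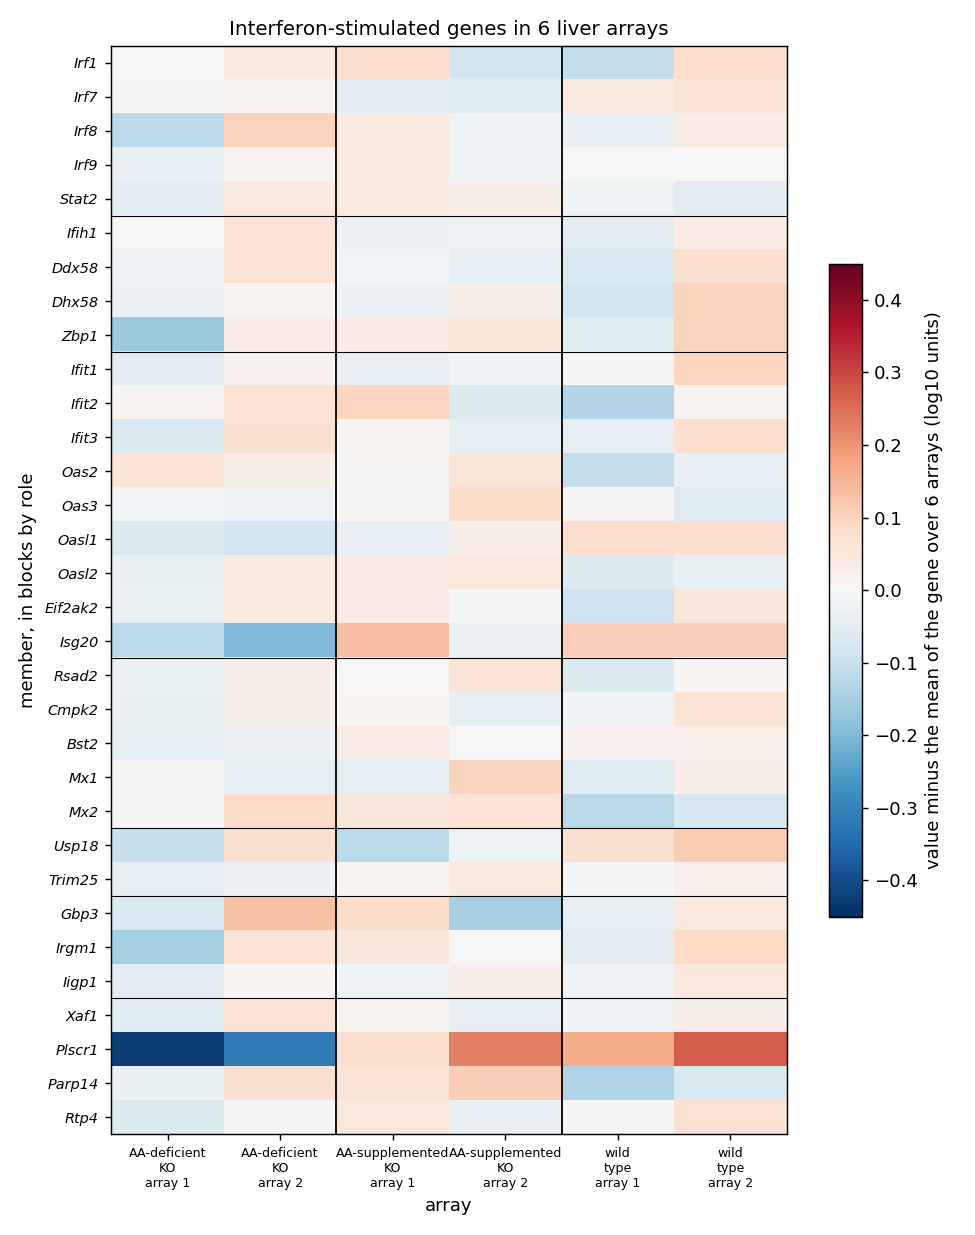
Value of each of the 32 measured members (rows) on each of the 6 arrays (columns, AA-deficient knockouts, AA-supplemented knockouts, wild type), shown as the deviation from that member's mean over the arrays in log10 units. Both AA-deficient arrays are low in the row of Plscr1 (0.765 and 0.873, against 1.26 to 1.46 on the other arrays), and the second array is the higher one for 27 of 32 rows in AA-deficient knockouts and in wild type.

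The members also differed between the 2 arrays of a group, with a median gap in size of 0.0649 between AA-deficient arrays, 0.0526 between AA-supplemented arrays and 0.0703 between wild-type arrays. In AA-deficient knockouts the second array was higher for 27 of 32 members, with a median signed gap of 0.0604, and in wild type likewise for 27 of 32, with a median gap of 0.0703. In AA-supplemented knockouts it was higher for 16 of 32, with a median gap of -0.00495. Over all genes with a value, the second array was higher for 47.1% in AA-deficient knockouts, 56.6% in AA-supplemented ones and 44.4% in wild type. The gap was thus toward higher values for members in AA-deficient knockouts and wild type, while all genes there had median gaps of -0.00533 and -0.0108. It was seen in both these groups for 25 of 32 members (78.1%) and for 27.6% of all genes. Among 48 further interferon-induced genes with a value, 39 were higher on the second AA-deficient array, 23 on the second AA-supplemented array and 37 on the second wild-type array. Among 16 receptor and Jak-Stat genes the counts were 12, 6 and 12, so these 2 lists showed gaps of the same direction. The interferon ligands had counts of 5, 11 and 2 among 15 with a value, and leaned as all genes did. Only 6 of these 15 passed the dim filter. The median of the list on an array lay between 0.0836 and 0.142, below the filter value of 0.185. Ligand gaps at that level cannot be told from those of background. The antigen presentation genes induced by interferon gamma had 17, 5 and 10 of 19, and were thus split in wild type. After quantile normalisation the counts for members were 28, 16 and 26 of 32 in AA-deficient knockouts, AA-supplemented knockouts and wild type. Array numbers mark no shared animal or batch in the labels.

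Markers of Kupffer cells and macrophages, and of liver endothelial cells, moved with these gaps in part. The second array was higher for 11 of 12 Kupffer cell and macrophage markers in AA-deficient knockouts, 2 of 12 in AA-supplemented knockouts and 7 of 12 in wild type. Their summed linear level lay between 133 and 168 in AA-deficient knockouts, 127 and 154 in AA-supplemented knockouts, and 126 and 135 in wild type, with no marker at 0. For the 7 endothelial markers the counts were 6, 2 and 5, and their summed linear level lay between 129 and 134 in AA-deficient knockouts, 118 and 121 in AA-supplemented knockouts, and 125 and 134 in wild type. Clec4g, with values of 1.74 to 1.90, was the highest marker on every array and weighed most in that sum. The sum therefore follows Clec4g more than the list as a whole. Stellate cell markers had counts of 1, 5 and 3 of 6, and cholangiocyte markers 0, 4 and 2 of 4. Hepatocyte markers had 3, 7 and 0 of 7. Among the dimmer lists, T cell markers had 5, 3 and 1 of 6, and B cell markers 3, 1 and 3 of 4. Natural killer cell markers had 3, 2 and 1 of 6, neutrophil markers 2, 3 and 4 of 6, and monocyte markers 3, 1 and 1 of 3. Dendritic cell markers had 2, 4 and 2 of 5, and plasmacytoid ones 1, 1 and 0 of 4. The part of these cells in the gaps was not tested. Between groups, all 12 Kupffer cell and macrophage markers were above wild type in AA-deficient knockouts with a median difference of 0.0477. Of these, 0 were called by limma, with 0 at an unadjusted p under 0.05. Against AA-supplemented knockouts, 8 of the 12 had a positive difference and 0 were called, with 0 at an unadjusted p under 0.05. The endothelial scavenger receptor Stab2 was the one marker called over all 12 marker lists, which in AA-deficient knockouts stood 0.237 above wild type (limma adjusted p = 0.032). In that comparison 4.63% of all genes were called, 3.08% higher. Of the 7 endothelial markers 5 were above wild type there, and 2 were below it, Clec4g (-0.0731) and Pecam1 (-0.0683). Whether cell makeup had a part in the lower Plscr1 and Isg20 was not tested.

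**Figure D4:**
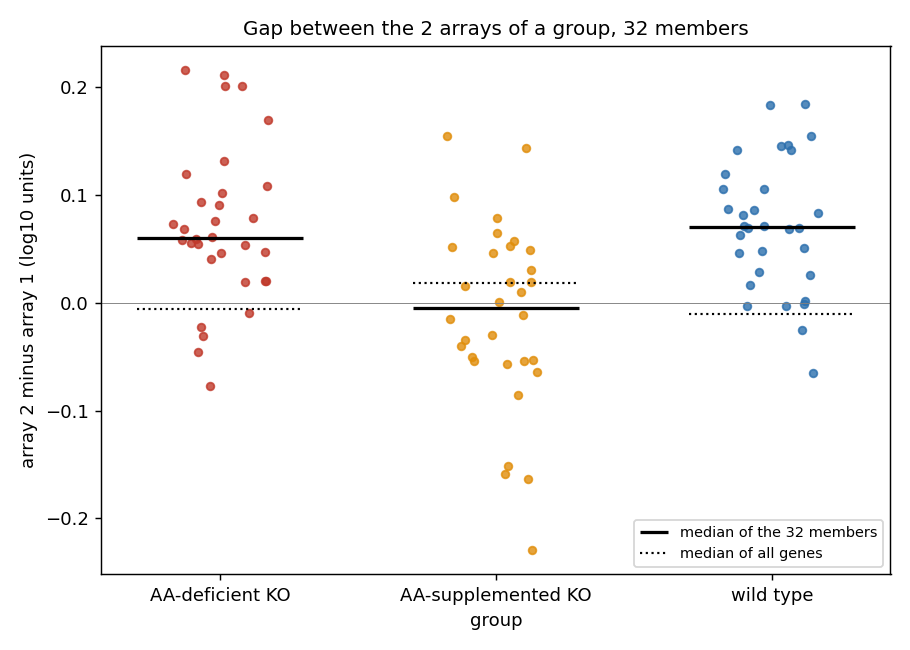
Difference between the 2 arrays of a group (second minus first, log10 units) for the 32 members, for AA-deficient knockouts, AA-supplemented knockouts and wild type. The members lie mostly above 0 in AA-deficient knockouts and wild type (27 of 32 in each) and evenly on both sides in AA-supplemented knockouts (16 of 32).

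Genes upstream of the members were taken from lists of the interferon ligands, their receptors with the Jak and Stat proteins, and the sensing pathway that induces interferon. None of the 6 ligands, 16 receptor and Jak-Stat genes or 13 sensing genes tested was called in any comparison by limma. An unadjusted p under 0.05 was reached by 1 ligand, 2 receptor and Jak-Stat genes and 3 sensing genes between the knockout groups, and by 1, 2 and 5 of them between AA-deficient knockouts and wild type. Between AA-supplemented knockouts and wild type the counts were 1, 2 and 2. Over all genes tested, 9.92%, 20.4% and 10.6% reached that level in these comparisons. Ifnb1, the gene of interferon beta, had values of 0.106 and 0.1004 in AA-deficient knockouts, 0.197 and 0.331 in AA-supplemented knockouts, and 0.370 and 0.289 in wild type. Both AA-deficient arrays were lowest, at values below the filter value of 0.185, so Ifnb1 passed the filter through its other arrays. Expression at that level cannot be told from background. The differences were -0.161 (limma adjusted p = 0.369) and -0.227 (limma adjusted p = 0.0599). Ifngr2, the signalling chain of the interferon gamma receptor, had values of 1.29 and 1.27 in AA-deficient knockouts, 1.38 and 1.45 in AA-supplemented knockouts, and 1.43 and 1.46 in wild type. Its AA-deficient arrays were again the lowest, and the differences were -0.135 (limma adjusted p = 0.329) and -0.167 (limma adjusted p = 0.0728).

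Myd88, the adaptor of most Toll-like receptors, had values of 1.09 and 1.01 in AA-deficient knockouts, 1.27 and 1.33 in AA-supplemented knockouts, and 1.23 and 1.19 in wild type. Both AA-deficient arrays were lowest, with differences of -0.249 against AA-supplemented knockouts (limma adjusted p = 0.114) and -0.156 against wild type (limma adjusted p = 0.104). Irf5, which acts downstream of Myd88, had values of 0.433 and 0.511 in AA-deficient knockouts, 0.642 and 0.581 in AA-supplemented knockouts, and 0.638 and 0.731 in wild type. It had the same low group, with a difference of -0.213 against wild type (limma adjusted p = 0.0594). Trim56, a ubiquitin ligase of the sensing pathway, differed the other way, at 0.770 and 0.763 in AA-deficient knockouts, 0.697 and 0.708 in AA-supplemented knockouts, and 0.546 and 0.618 in wild type. Its difference of 0.184 between AA-deficient knockouts and wild type did not pass (limma adjusted p = 0.0530). Jak2, the kinase of the interferon gamma receptor, was 0.146 above wild type in AA-deficient knockouts (limma adjusted p = 0.140) and 0.143 above it in AA-supplemented knockouts (limma adjusted p = 0.379). Stat3, a Stat protein better known from interleukin 6 signalling, differed by -0.101 between the knockout groups (limma adjusted p = 0.495) and by 0.108 between AA-supplemented knockouts and wild type (limma adjusted p = 0.434). Tlr9, a receptor for unmethylated DNA, was 0.101 above wild type in AA-supplemented knockouts (limma adjusted p = 0.456). The interferon alpha genes are near-identical copies whose probe sets may share signal. Among them, Ifna11 differed by 0.224 between the knockout groups (limma adjusted p = 0.564), and Ifna14 and Ifna5 by 0.141 and 0.115 between AA-supplemented knockouts and wild type (limma adjusted p = 0.423 and 0.602).

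Of 42 further interferon-induced genes tested, 1 rose and 1 fell in AA-deficient knockouts against wild type, and 0 passed in either of the other comparisons. The background of that comparison is 4.63% of all genes (3.08% higher and 1.55% lower), so the share called in this list is near the background. Slfn5, a Schlafen family gene, had values of 0.564 and 0.599 in AA-deficient knockouts, 0.600 and 0.535 in AA-supplemented knockouts, and 0.366 and 0.350 in wild type. All knockout arrays were above wild type, by 0.224 or 1.67-fold in AA-deficient knockouts (limma adjusted p = 0.0331) and by 0.210 in AA-supplemented knockouts (limma adjusted p = 0.190). Ifi27, which encodes a small membrane protein, had values of 1.08 and 1.01 in AA-deficient knockouts, 1.07 and 1.14 in AA-supplemented knockouts, and 1.28 and 1.31 in wild type. All knockout arrays were below wild type, by a difference of -0.253 or 1.79-fold lower in AA-deficient knockouts (limma adjusted p = 0.0295) and -0.191 in AA-supplemented knockouts (limma adjusted p = 0.225). In Slfn5 and Ifi27 the AA-supplemented arrays thus lay with the AA-deficient ones, whereas in Plscr1 they lay with wild type. Between the knockout groups the smallest p-values belonged to Ube2l6, a conjugating enzyme for ISG15, at 0.112 (limma adjusted p = 0.428), and Ifitm2, which hinders viral entry, at -0.119 (limma adjusted p = 0.461). The median difference of the 42 genes was 0.0213 between AA-deficient knockouts and wild type, where all genes had -0.00335. It was larger between AA-supplemented knockouts and wild type, at 0.0389 (all genes -0.00167). Between the knockout groups it was -0.0179 (all genes 3.14e-05).

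Plscr1 was also set beside the other phospholipid scramblases and flippases, the proteins that distribute lipids across the membrane. Of 12 such genes tested, Plscr1 was the one called, in both comparisons of AA-deficient knockouts. The background was 0.205% of all genes against AA-supplemented knockouts and 4.63% against wild type. Between AA-supplemented knockouts and wild type 0 were called, beside 0.00682%. An unadjusted p under 0.05 was reached by 3, 5 and 1 of the 12 in these comparisons, beside 9.92%, 20.4% and 10.6% of all genes. Xkr9, a relative of the scramblase that acts in apoptosis, had values of 0.837 and 0.903 in AA-deficient knockouts, 0.671 and 0.679 in AA-supplemented knockouts, and 0.705 and 0.609 in wild type. Both AA-deficient arrays of Xkr9 were highest, the opposite order to Plscr1, with differences of 0.195 against AA-supplemented knockouts (limma adjusted p = 0.211) and 0.213 against wild type (limma adjusted p = 0.0510). The median difference of the 12 genes was -0.00190 between the knockout groups (all genes 3.14e-05) and -0.00260 between AA-deficient knockouts and wild type (all genes -0.00335). Ano6, the calcium-activated scramblase of platelets, had values of 0.630 and 0.699 in AA-deficient knockouts, 0.688 and 0.652 in AA-supplemented knockouts, and 0.577 and 0.623 in wild type, with the AA-deficient arrays spanning the AA-supplemented ones. Atp8a1, a flippase, was 0.160 above wild type in AA-supplemented knockouts (limma adjusted p = 0.453).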

How the data were processed

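Total liver RNA of 6 samples was labelled with biotin for Affymetrix GeneChip arrays, per the labels' protocols. The authors deposited 1 table with 1 value per probe set and array, on a log scale taken here as log10. Its software, normalisation and log base were not given in the sources used here. Of 34760 probe sets, 30765 held values, and the platform annotation gave 21161 of these 1 gene symbol, 1150 several and 8454 none. All 32 measured members matched the RefSeq table by Entrez identifier.

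Groups follow the labels' source names. Differences were fitted with limma 3.58.1 in R 4.3.3 on the deposited log10 values with all 6 arrays (3 residual and 4.89 prior degrees of freedom), without a block. P-values are two-sided, and the call is an adjusted p under 0.05. The procedure was tested on simulated data with independent arrays and a spread drawn from limma's fitted prior. That run checks the procedure under limma's own assumptions and not the behaviour of these arrays. The design had been written with other scales in view, and no pseudocount was needed. The members and lists were chosen with earlier results of these data known. The text names the members past the threshold, those of largest difference and smallest p in each comparison, and likewise the leading genes of each other list. Promoter windows come from RefSeq (GRCm38.p6). Alternatives covered the filter, normalisation, moderation of the variance, arrays in the fit, probe sets, gene span, the replicate block and leaving out each array.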

Additional observations from a re-analysis of the deposited data

How the results depend on the processing

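Plscr1 kept its direction between AA-deficient and AA-supplemented knockouts in all 17 alternative fits but not its call: the adjusted p was 0.121 with no filter, 0.0730 with quantile normalisation, 0.0705 with cyclic loess and 0.119 with only the 2 groups in the fit, where 0 members were called in place of 1. Leaving out each array gave 0 to 1 members. Against wild type Plscr1 kept its call in the 11 other settings (adjusted p 0.000456 to 0.0236). Isg20 lost its call there with no filter (0.0974), with the trend on gene span removed (0.0707) and with the replicate block (0.0713), so 1 member was called in place of 2. With the dim filter at the 50th percentile 3 of 25 members were called, Oasl1 being added, beside 1057 of 9775 genes. A trend in the prior variance gave the same 3 of 30, beside 1271 of 14662 genes, where the main fit called 679. Without single arrays the Isg20 difference ran from -0.308 to -0.230. Over the 3 groups, 0 members were called with no filter, beside 30 of 19550 genes. A trended prior gave 2 members, beside 861 of 14662 genes. A trended and robust prior gave 2, beside 894, in place of 1 beside 200. Between AA-supplemented knockouts and wild type 0 members were called under every alternative run. There Plscr1 turned to 0.00601 without AA-supplemented replicate 1 (range without single arrays -0.148 to 0.00601) and Isg20 to 0.0285 without AA-supplemented replicate 2 (range -0.135 to 0.0285), and none of these values passed. The cause of these shifts was not tested.

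With the replicate number as a block, Plscr1 kept its calls (adjusted p 0.0473 and 0.0116), and 163 of all genes were called between AA-deficient knockouts and wild type in place of 679. Deviations of same-numbered arrays correlated at -0.369 between the knockout groups, 0.358 between AA-deficient knockouts and wild type, and -0.284 between AA-supplemented knockouts and wild type, and the labels tie no number to a shared animal or batch. A batch along these lines was not tested. Between AA-deficient knockouts and wild type, no filter left 173 calls over all genes and the span correction 402. Between the knockout groups all genes gave 0 calls with no filter or only 2 groups, in place of 30. The members' median difference was within its spread between replicates (SD 0.0423) in the other settings, and without single arrays it ran from -0.0487 to 0.0198 between the knockout groups, from -0.0547 to 0.0481 for AA-deficient knockouts against wild type, and from -0.0530 to 0.0320 for AA-supplemented knockouts against wild type. Where an array was left out, its group's single array was taken to vary like the other groups. No detection call was used, so members of low value cannot be told from background.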

Other observations

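A list of antigen presentation genes that interferon gamma induces, which also holds the class II transactivator Ciita and the chemokine Cxcl10, had mostly positive differences between AA-deficient knockouts and wild type, and none passed the test. Of 17 tested, 13 were positive, 5 reached an unadjusted p under 0.05 (20.4% of all genes did) and 0 were called by limma. Their median difference was 0.0605 (all genes -0.00335). AA-supplemented knockouts also leaned above wild type, with 12 of 17 positive, 2 at that level (10.6% of all genes) and a median of 0.0219. Between the knockout groups 13 were positive, 0 reached that level (9.92% of all genes) and the median was 0.0551. Cxcl10, a chemokine that attracts T cells, had values of 0.571 and 0.829 in AA-deficient knockouts, 0.432 and 0.730 in AA-supplemented knockouts, and 0.344 and 0.171 in wild type. The difference from wild type was 0.443 in AA-deficient knockouts (limma adjusted p = 0.0710). H2-Eb1, a chain of MHC class II, had values of 0.875 and 1.16 in AA-deficient knockouts, 0.982 and 0.730 in AA-supplemented knockouts, and 0.654 and 0.584 in wild type, a difference of 0.399 (limma adjusted p = 0.0743).

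Cd74, the invariant chain that escorts class II, had values of 1.37 and 1.62 in AA-deficient knockouts, 1.49 and 1.24 in AA-supplemented knockouts, and 1.10 and 1.15 in wild type. All 4 knockout arrays lay above wild type, and the difference of 0.366 in AA-deficient knockouts did not pass (limma adjusted p = 0.0746). Between the knockout groups, Tapbp, which loads peptide on class I, and Ciita itself had the smallest p-values, with differences of 0.0784 and 0.0737 (limma adjusted p = 0.628 and 0.652). The second array was higher for 17 of 19 genes of this list in AA-deficient knockouts, 5 of 19 in AA-supplemented knockouts and 10 of 19 in wild type, and the Kupffer cell markers named above had the same order of counts.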
